A study of Homo sapiens with 6 samples.

Results

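The genes described here encode the nuclear pore and the factors that carry cargo through it, in MDA-MB-231, an established cell line from a breast cancer of the triple-negative kind. They were chosen by symbol: nucleoporins (NUP), importins (IPO, KPNA, KPNB), exportins (XPO, CSE1L), transportins (TNPO), the GTPase RAN and the numbered RAN-binding proteins (RANBP). The rule took 54 of the 15024 genes in the expression table. It reads symbols and no measured value, but it was chosen with earlier results of these data known. RNA was sequenced from cells sorted into CD104high and CD104low fractions, with 3 libraries in each. The labels name the latter fraction CD104-/low, and it is written CD104low here. All 6 libraries came from CD44+ cells labelled sgNT that had received 10 µM forskolin, an activator of adenylyl cyclase and through it of protein kinase A, for 14 days. CD104 is the integrin beta 4 subunit, encoded by ITGB4, and the design text calls the CD104high cells hybrid for the epithelial-mesenchymal transition and the CD104low cells mesenchymal. A group is therefore a sorted fraction of a single line. The design text also speaks of MLL3-mutant cells, which were not analysed here.

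The nuclear pore is a ring-shaped assembly of nucleoporins in the nuclear envelope. Structural rings hold its shape, and nucleoporins rich in phenylalanine-glycine repeats fill its channel. Importins and exportins bind cargo and cross that channel, and the GTP-bound form of RAN, which is made in the nucleus, releases import cargo and loads export cargo. In dividing cells this traffic carries ribosomal subunits, tRNA, mRNA-binding proteins and cell cycle regulators between nucleus and cytoplasm.

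Recovered reads ranged from 52088604 to 56958065 per library. ITGB4, the gene of the sort marker, was 5.83-fold higher in CD104high (limma adjusted p = 4.1e-05). The marker genes of the line VIM, AXL, CAV1 and CD44 averaged at least 21201 normalised reads in either group, and the epithelial gene EPCAM averaged 677 in CD104high and 639 in CD104low. Among these markers CAV1 was called higher in CD104high (log2 fold change 0.36, adjusted p = 0.0243). ERBB2, the receptor gene whose amplification the triple-negative name excludes, averaged 8727 in CD104high and 7571 in CD104low and was not called (0.20 on the log2 scale, adjusted p = 0.0501). Of 9 listed marker genes of the line, 6 were among the 15024 genes, and CDH1, ESR1 and PGR were not. Of 10 marker genes of blood, endothelial and fibroblast cells, 5 were in the table. PECAM1 and DCN averaged under 10 normalised reads in each group. The sum over the 5 genes, nearly all of it from COL1A1, COL1A2 and PDGFRB, was 4865 to 6847 in CD104high and 3109 to 4936 in CD104low. Of those 3, COL1A2 was called higher, with means of 1456 in CD104high and 541 in CD104low (adjusted p = 0.00402).

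Nuclear transport and pore genes were lower in the CD104high cells, with members that fell among the structural rings, the channel, both faces, the import and export receptors and the RAN cycle. Of 53 members tested, 28 fell (52.8%) and 0 rose at an adjusted p under 0.05, where 11.3% of all tested genes fell and 12.1% rose. Because the members were chosen with earlier results known, these shares are a description and were not tested. No member rose at an unadjusted p under 0.05, and edgeR and DESeq2 also called 0 members higher. The largest falls were those of RANBP1, IPO5, NUP188, NUP43, RAN and NUP88. All falls were small, between 1.17-fold and 1.41-fold, and the median log2 fold change of the 53 members was −0.25, beside 0.01 over all tested genes. Of the 53 members, 49 had a mean of at least 1000 normalised reads, as did 7940 of 14343 tested genes. Among those 7940 genes 17.7% fell and 12.3% rose, with a median of −0.05, and the 28 members that fell were all among the 49. A log2 fold change below 0 was seen for 48 of 53 members, against 48.8% of all tested genes and 57.4% of the 7940.

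The count of 28 moved with the libraries and the threshold. It was 17 without CD104high replicate 2 and 18 without CD104low replicate 2, and 20 in limma with no trend in the variance. At an adjusted p under 0.01 it was 14. With the replicate number as a block, 32 members fell, where 15.4% of all tested genes did. In the authors' deposited table, 30 of 53 members with an adjusted p were lower and 0 higher at 0.05, where 14.8% of its genes with an adjusted p were lower. The 28 members that fell in limma were all among those 30, and the other 2 were XPO4 and NUP107 (adjusted p = 0.0119 and 0.0151 in the authors' deposited table).

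**Figure D1:**
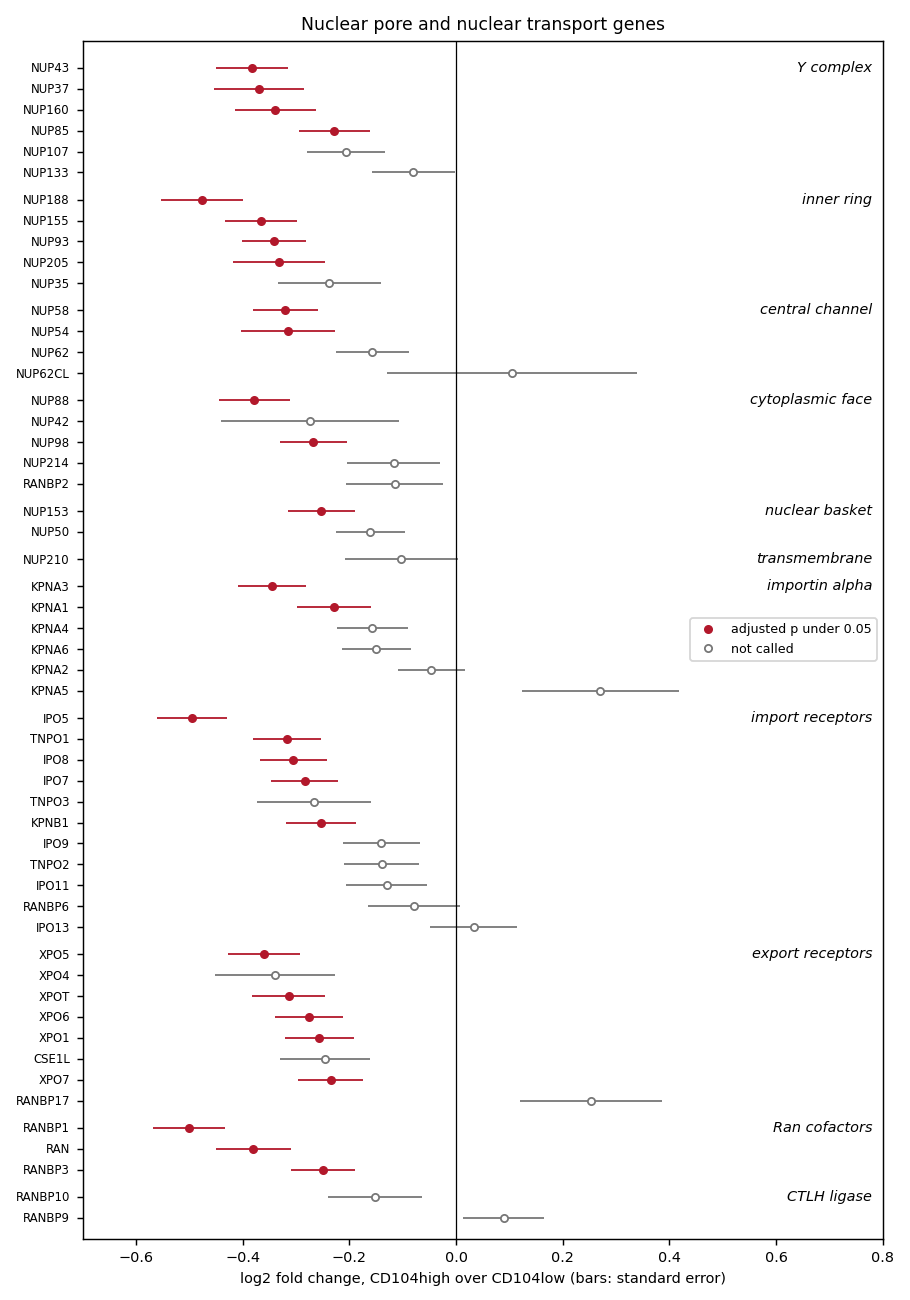
Log2 fold change of CD104high over CD104low for the 53 tested genes, grouped by role, with standard errors from limma as bars; filled red points passed an adjusted p of 0.05 and open grey points did not. 48 points lie below 0 and 5 above it, and the 28 called points run from −0.50 to −0.23.

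Taken by library, the 54 genes held 0.711%, 0.720% and 0.726% of all normalised reads in CD104high replicates 1 to 3, against 0.826%, 0.881% and 0.849% in CD104low replicates 1 to 3. The 3 CD104high libraries were thus all below the 3 CD104low libraries. For 39 of 53 members the highest CD104high library was below the lowest CD104low library, where 21.3% of all tested genes and 30.3% of those with a mean of at least 1000 did the same. RANBP17 and KPNA5 were separated the other way, as were 19.9% of all tested genes. Between libraries of the same number, 42 of 53 members were lower in CD104high in 3 of 3 pairs, against 30.4% of all tested genes and 40.4% of those with a mean of at least 1000. In bulk RNA, fewer cells with a transcript and less of it per cell cannot be told apart. The median coefficient of variation between replicates over members was 3.29% in CD104high and 5.23% in CD104low, beside 7.83% in CD104high and 9.70% in CD104low over all tested genes, which include many of lower expression.

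**Figure D2:**
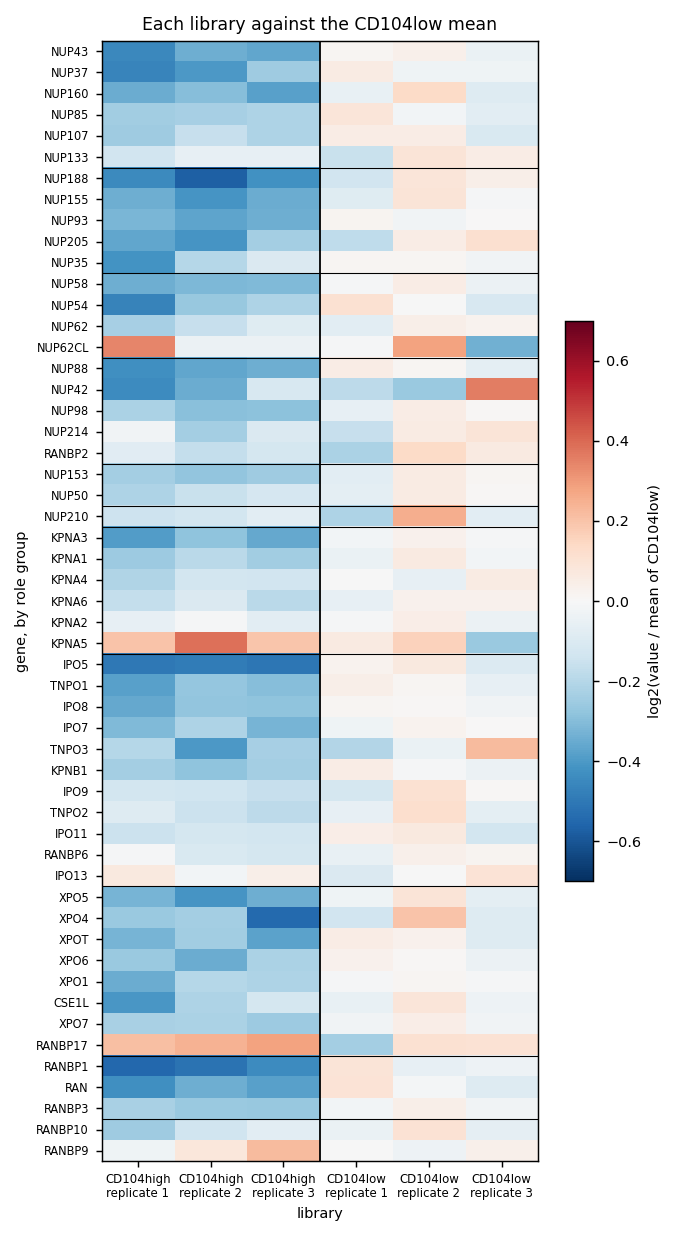
Log2 ratio of each library to the mean of the 3 CD104low libraries for the 53 tested genes (rows, by role group, separated by lines) in the 6 libraries (columns). The 3 CD104high columns are blue for most rows, with library medians of −0.25, −0.24 and −0.22, and the rows of KPNA5 and RANBP17 are red in them.

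Upstream sequence from RefSeq (GRCh38.p14) was matched by symbol for 48 of the 54 genes, and the 250 bases before the gene start were searched on both strands. The windows below show an E-box (CACGTG, bound by MYC with MAX and by related factors) or TGACG (the core of the cyclic AMP response element). They belong to the 5 members that fell with the smallest p among those with either run of letters in 100 upstream bases that touch no annotated exon. Capitals mark those letters, or CGTCA, which is TGACG on the other strand.
IPO5: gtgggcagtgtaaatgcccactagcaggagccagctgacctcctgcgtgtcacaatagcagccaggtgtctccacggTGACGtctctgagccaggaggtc
NUP93: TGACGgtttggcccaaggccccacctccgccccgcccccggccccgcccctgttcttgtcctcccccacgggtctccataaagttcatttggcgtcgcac
XPOT: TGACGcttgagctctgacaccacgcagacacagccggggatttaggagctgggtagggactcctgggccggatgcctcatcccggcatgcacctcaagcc
IPO7: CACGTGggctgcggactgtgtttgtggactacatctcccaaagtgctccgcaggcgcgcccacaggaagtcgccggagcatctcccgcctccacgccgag
XPO6: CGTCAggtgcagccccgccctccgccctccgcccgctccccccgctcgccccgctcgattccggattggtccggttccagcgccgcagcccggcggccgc
The IPO5 window is chr13:97953558-97953657, the NUP93 window chr16:56729990-56730089, the XPOT window chr12:64404166-64404265 and the IPO7 window chr11:9384514-9384613, all on the plus strand. The XPO6 window is chr16:28211991-28212090 on the minus strand.

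TGACG was in the 250 bases of 14 of 24 members that fell (58.3%) and of 6 of 23 that were not called (26.1%). It was in 29.1% of the promoters of all tested genes, in 32.1% of those with a mean of at least 1000 and in 21.7% of all RefSeq promoters. The E-box was in 4 of 24 members that fell (16.7%), which were NUP188, RAN, KPNA3 and IPO7, and in 2 of 23 not called (8.7%). It was in 8.64% of tested genes, 9.77% of those with a mean of at least 1000 and 6.49% of all promoters. The full element TGACGTCA, which contains TGACG, was in 0 of the 24 that fell and in 3 of 23 not called, which were NUP42, NUP214 and NUP133. Its shares were 2.78% of tested genes, 3.33% of those with a mean of at least 1000 and 1.77% of all promoters. The 7 motifs searched were chosen after the fold changes were known, and the shares are a description of these letters. Among the other 4, the shares in members that fell, in members not called and in all tested genes were 37.5%, 56.5% and 34.6% for CCAAT, 25.0%, 21.7% and 15.5% for CCGGAAG, and 62.5%, 56.5% and 66.3% for GGGCGG. The NRF1 motif was in 1 of 24 members that fell, in 3 of 23 not called and in 1.91% of all tested genes.

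The RAN cycle gives transport its direction. RAN (ENSG00000132341.12, chromosome 12, 130871879 to 130877678, plus strand, GRCh38), the GTPase itself, had 20655, 21953 and 21392 normalised reads in CD104high and 29745, 27569 and 26086 in CD104low. Every CD104high library was below every CD104low library, and RAN fell by 0.38 on the log2 scale (SE 0.07, adjusted p = 0.00467 by limma). RANBP1 (ENSG00000099901.17, chromosome 22, 20115938 to 20127357), which helps RAN release export complexes in the cytoplasm, had 7803, 7961 and 8414 in CD104high and 12129, 10952 and 11141 in CD104low. It showed the largest fall of all members, 1.41-fold (log2 fold change −0.50, SE 0.07, adjusted p = 0.00109), again without overlap. RANBP3, a cofactor of the exportin XPO1, had 6225, 6090.5 and 6058 in CD104high and 7189, 7488 and 7173 in CD104low and fell by 0.25 on the log2 scale (SE 0.06, adjusted p = 0.0152). Its call ended without CD104high replicate 2 or 3, without CD104low replicate 2 and without both libraries numbered 3 (adjusted p 0.0542 to 0.074). GENCODE names 9 pseudogenes of RAN, so reads from RAN may be divided among near-identical copies.

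**Figure D3:**
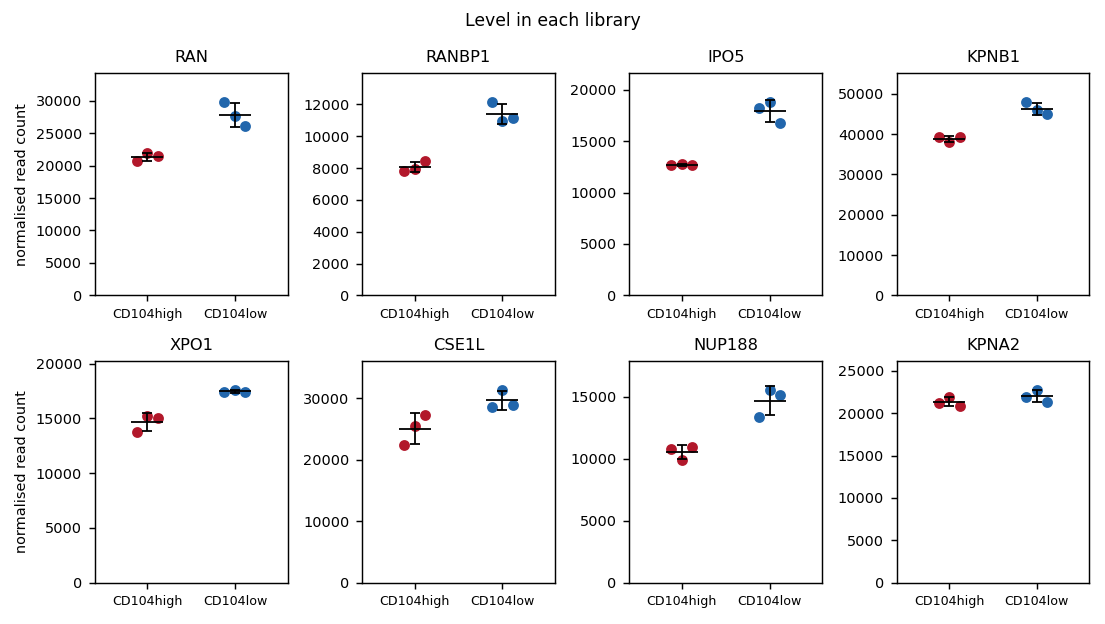
Normalised read count (axis from 0) of 8 genes in each CD104high library (left, red) and CD104low library (right, blue), with the mean and SD (n = 3 each) in black. The groups do not overlap for RAN, RANBP1, IPO5, KPNB1, XPO1, CSE1L and NUP188, and they overlap for KPNA2.

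Of 11 tested import receptors of the importin beta family, 5 fell (45.5%) and 0 rose. The shares that fell were 11.3% of all tested genes and 17.7% of those with a mean of at least 1000. IPO5 (ENSG00000065150.21, chromosome 13, 97953658 to 98024297, plus strand), which imports ribosomal proteins and histones among other cargo, had 12670.1, 12769.6 and 12628 in CD104high and 18196, 18774 and 16755 in CD104low. The CD104high values were nearly equal to each other and below all CD104low values (log2 fold change −0.50, SE 0.07, adjusted p = 0.00101). TNPO1, the transportin that carries hnRNP proteins, had 14017, 15118 and 14821 in CD104high and 18783, 18429.8 and 17549 in CD104low (−0.32, adjusted p = 0.00691). KPNB1 (ENSG00000108424.10), the importin beta of the classical pathway, had 39155, 38024 and 39214 in CD104high and 47886, 45983 and 44867 in CD104low. This was a fall of 1.19-fold without overlap (adjusted p = 0.0209).

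IPO7 and IPO8, a closely related pair of import receptors, fell with log2 fold changes of −0.28 and −0.30 (adjusted p = 0.0106 and 0.00803). Of the other import receptors, TNPO3, which imports SR splicing factors, had a log2 fold change of −0.27 with overlapping groups (adjusted p = 0.0996) and passed with the replicate block (adjusted p = 0.0413) and without CD104low replicate 1 (0.0351). IPO9 (−0.14, adjusted p = 0.186) passed without CD104low replicate 1 (0.0469). TNPO2, IPO11, RANBP6 and IPO13 had log2 fold changes of −0.14, −0.13, −0.08 and 0.03, and their adjusted p values were 0.181 to 0.807. The call for KPNB1 ended without any 1 of the 3 CD104high libraries, without CD104low replicate 2, without both libraries numbered 3 and in limma fitted with no trend in the variance (adjusted p 0.05 to 0.0798). That for IPO7 ended without both libraries numbered 3 (0.0727).

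The importin alpha adaptors hold the nuclear localisation signal of a cargo and bind it to KPNB1. Of 6 tested, 2 fell (33.3%) and 0 rose. Falls were found in 11.3% of all tested genes and 17.7% of those with a mean of at least 1000. KPNA3 had 3861, 4168 and 3953 in CD104high and 5003, 5179 and 5035 in CD104low, without overlap (log2 fold change −0.35, SE 0.06, adjusted p = 0.00481). KPNA1 fell by 0.23 on the log2 scale (adjusted p = 0.0378), but this call ended in 8 of 17 alternative fits. These were limma without the trend, total-read scaling, and the fits without any 1 of the 3 CD104high libraries, CD104low replicate 2, CD104low replicate 3 or both libraries numbered 3 (adjusted p 0.0561 to 0.132). KPNA2 (ENSG00000182481.9), whose transcript is among the most abundant of the members, had 21164, 21924 and 20896 in CD104high and 21927, 22786 and 21373 in CD104low. Its groups overlapped, although CD104high was lower in each numbered pair (log2 fold change −0.05, SE 0.06, adjusted p = 0.634). KPNA4 and KPNA6 had −0.16 and −0.15 (adjusted p = 0.114 and 0.121). KPNA5, a rare transcript here, had 364, 413 and 362 in CD104high and 331, 353 and 265 in CD104low, the CD104high libraries all being above (0.27, SE 0.15, adjusted p = 0.212). Per kilobase of annotated exon, the level of KPNA2 averaged 6792 in CD104high and 7015 in CD104low, and that of KPNA5 33.2 in CD104high and 27.7 in CD104low.

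Of 8 export receptors, 5 fell (62.5%) and 0 rose. The background shares that fell were again 11.3% (all tested genes) and 17.7% (those with a mean of at least 1000). XPO5 (ENSG00000124571.18), the exportin of microRNA precursors, had 7235, 6817 and 7162 in CD104high and 8886, 9681 and 8671 in CD104low (−0.36 on the log2 scale, SE 0.07, adjusted p = 0.00496). XPOT, which exports tRNA, had 7572, 8010.1 and 7325 in CD104high and 9840.1, 9709 and 8935 in CD104low (−0.31, adjusted p = 0.00972). Both were without overlap. XPO1 (ENSG00000082898.17), the exportin of proteins with a leucine-rich export signal, had 13712, 15197 and 15028 in CD104high and 17396, 17630.2 and 17396 in CD104low (−0.26, SE 0.06, adjusted p = 0.0194). XPO6, which exports actin with profilin, and XPO7 fell with log2 fold changes of −0.28 and −0.24 (adjusted p = 0.0127 and 0.0202). CSE1L (ENSG00000124207.17), which returns importin alpha to the cytoplasm, had 22337, 25534 and 27236 in CD104high and 28578, 31393 and 28864 in CD104low. Its groups did not overlap, but it missed the threshold (−0.25, SE 0.08, adjusted p = 0.0611).

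CSE1L passed with the replicate block (adjusted p = 0.024), with DESeq2 and without CD104high replicate 3 or both libraries numbered 3 (adjusted p at most 0.0417). XPO4 had −0.34 (adjusted p = 0.0545) and passed with the block (0.012) and with DESeq2 (0.0225). The call for XPO1 ended without CD104high replicate 1, CD104low replicate 2 or both libraries numbered 3 and without the trend (adjusted p 0.0553 to 0.0783). XPO7 lost its call without any 1 of the 3 CD104high libraries, CD104low replicate 2 or both libraries numbered 3 and without the trend (0.0563 to 0.094), and XPO6 without CD104high replicate 2 (0.0605). RANBP17, the closest relative of XPO7, had 431, 441 and 454 in CD104high and 316, 402 and 401 in CD104low, all CD104high libraries being above (0.25, SE 0.13, adjusted p = 0.198).

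Among the nucleoporins, counted with RANBP2, 13 of 23 tested fell (56.5%) and 0 rose, with a median log2 fold change of −0.27. In comparison, 11.3% of all tested genes fell, and 17.7% of those with a mean of at least 1000. The inner ring, which anchors the channel nucleoporins, fell in 4 of 5 members. NUP188 (ENSG00000095319.14, chromosome 9, 128947699 to 129007096, plus strand) had 10793, 9864 and 10945 in CD104high and 13358, 15571 and 15098 in CD104low (−0.48 on the log2 scale, SE 0.08, adjusted p = 0.00257). NUP93, the scaffold that binds NUP188 and NUP205, had 4996, 4839 and 4930.3 in CD104high and 6325, 6130.45 and 6259.8 in CD104low (−0.34, SE 0.06, adjusted p = 0.00366). Neither gene overlapped between the groups. NUP155 and NUP205 fell with log2 fold changes of −0.37 and −0.33 (adjusted p = 0.00459 and 0.021). NUP35 had −0.24, without overlap (adjusted p = 0.102). The call for NUP205 ended without the trend and without CD104high replicate 1 or 2 or CD104low replicate 2 or 3 (adjusted p 0.0544 to 0.0838).

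In the Y complex, the outer ring on both faces of the pore, 4 of 6 members fell, beside the same 11.3% and 17.7% as above. NUP43 had 2923, 3153 and 3108 in CD104high and 4025, 4093 and 3861 in CD104low (−0.38, SE 0.07, adjusted p = 0.00366). NUP37, NUP160 and NUP85 fell with log2 fold changes of −0.37, −0.34 and −0.23 (adjusted p = 0.0123, 0.0112 and 0.0322). NUP107 had −0.21 (adjusted p = 0.068) and passed with the replicate block (0.0417), with DESeq2 and without CD104low replicate 3, at adjusted p of at most 0.0495. NUP133 had −0.08 with overlapping groups (adjusted p = 0.496), and is the stalk subunit of the same complex. The call for NUP37 ended without CD104high replicate 1 or 2 (adjusted p 0.055 and 0.0503). That for NUP85 ended without the trend, without both libraries numbered 3 and without any 1 library except CD104low replicate 3 (0.0578 to 0.0956).

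In the channel 2 of 4 members fell, and on the cytoplasmic face 2 of 5, beside the same 11.3% and 17.7% as above. Of the channel nucleoporins, NUP58 had 5943, 6069.6 and 6093 in CD104high and 7485, 7804 and 7328 in CD104low (−0.32, SE 0.06, adjusted p = 0.00526). NUP54 fell by 0.31 on the log2 scale (adjusted p = 0.0285), while their partner NUP62 had −0.16 without overlap (adjusted p = 0.123). On the cytoplasmic face, NUP88 had 3762, 3936 and 4005 in CD104high and 5267, 5112 and 4839.6 in CD104low (−0.38, SE 0.07, adjusted p = 0.00365). NUP98, found on both faces, fell by 0.27 on the log2 scale (adjusted p = 0.0133). NUP214, the partner of NUP88, had −0.12 with overlapping groups (adjusted p = 0.364), and RANBP2, the filament protein that binds SUMO-modified RANGAP1, −0.11 (adjusted p = 0.395). RANBP2 passed without CD104low replicate 1 (adjusted p = 0.0378). It has near-identical relatives in the RGPD family, so its reads may have been divided. NUP42 had −0.27 with overlapping groups (SE 0.17, adjusted p = 0.264).

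At the nuclear basket, NUP153 fell by 0.25 on the log2 scale (adjusted p = 0.0177), and NUP50 had −0.16 (adjusted p = 0.104). NUP210, a membrane nucleoporin, had −0.10 with overlapping groups (adjusted p = 0.523), and NUP62CL, a relative of NUP62, 0.10 with overlapping groups (adjusted p = 0.784), at means of 91.8 normalised reads in CD104high and 85.9 in CD104low. NUP210L had at most 7.76 normalised reads in any library and was not tested. The call for NUP54 ended without the trend and without replicate 1 or 2 of either group (adjusted p 0.062 to 0.106). The call for NUP98 ended without replicate 2 of either group and without both libraries numbered 3 (0.0564 to 0.0748). NUP153 lost its call without any 1 of the 3 CD104high libraries, CD104low replicate 2 or both libraries numbered 3 and without the trend (0.0506 to 0.0818). RANBP9 and RANBP10, which bind RAN but belong to the CTLH ubiquitin ligase, had 0.09 and −0.15 (adjusted p = 0.433 and 0.238).

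**Figure D4:**
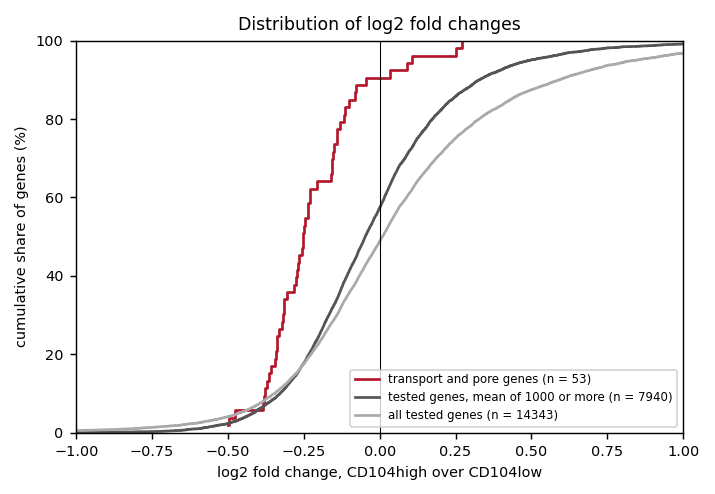
Cumulative share of genes (%) against log2 fold change of CD104high over CD104low for the 53 transport and pore genes (red), the 7940 tested genes with a mean of at least 1000 (dark grey) and all 14343 tested genes (light grey). The red curve lies left of both others over most of its range, with medians of −0.25, −0.05 and 0.01, and its lowest value is −0.50.

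Closely related receptors were set against each other within each library, which removes the scaling between libraries. The pairs were chosen after their values were seen and are given without a test. The log2 ratio of IPO5 to its relative RANBP6 averaged 3.62 ± 0.06 in CD104high and 4.04 ± 0.10 in CD104low (SD, n = 3 each), and the groups did not overlap. That of XPO7 to RANBP17 averaged 3.81 ± 0.05 in CD104high and 4.30 ± 0.18 in CD104low, also without overlap. The ratio of KPNA3 to KPNA4 averaged −0.12 ± 0.04 in CD104high and 0.07 ± 0.08 in CD104low. Between IPO7 and IPO8 the ratio was 2.12 ± 0.06 in CD104high and 2.10 ± 0.04 in CD104low, with overlapping groups.

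**Figure D5:**
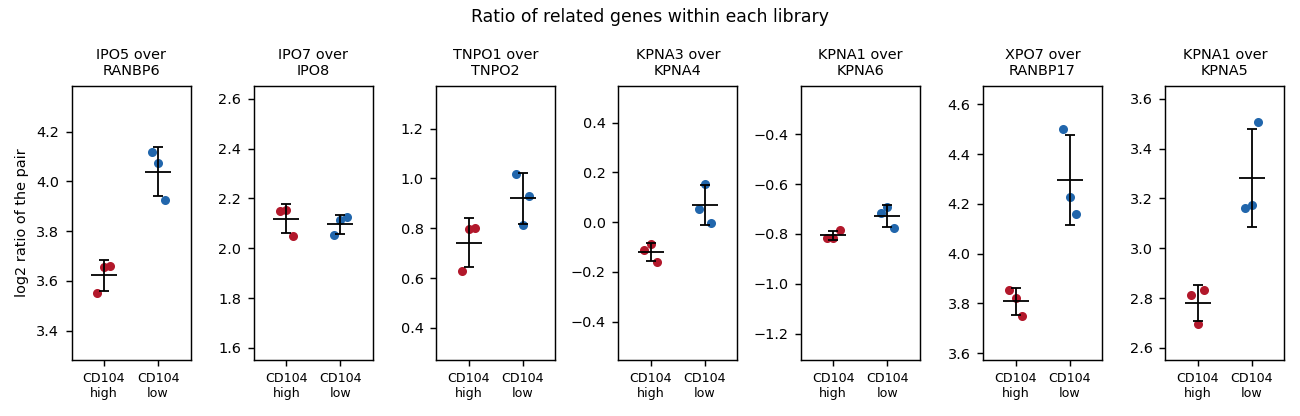
Log2 ratio of 7 pairs of related genes in each CD104high library (left, red) and CD104low library (right, blue), with mean and SD (n = 3 each) in black; each panel spans the same log2 range. The groups overlap for IPO7 over IPO8 and not for the other pairs.

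Genes of the pathway that the symbol rule leaves out were read from the same fit. Of 18 tested pore and RAN cycle genes, 8 fell (44.4%) and 0 rose, with a median log2 fold change of −0.21, where 11.3% of all tested genes and 17.7% of those with a mean of at least 1000 fell. RCC1, the exchange factor that loads RAN with GTP on chromatin, had 5676, 5282.5 and 5655 in CD104high and 8472, 7599 and 7009 in CD104low (−0.47, SE 0.08, adjusted p = 0.00315). RANGAP1, which makes RAN hydrolyse its GTP in the cytoplasm, fell by 0.39 on the log2 scale (adjusted p = 0.0107), a call that ended in limma without the trend (0.0542). SEH1L of the Y complex, RAE1, which binds NUP98 in mRNA export, and the membrane nucleoporin NDC1 fell with log2 fold changes of −0.38, −0.41 and −0.38 (adjusted p = 0.00258, 0.00355 and 0.0092). POM121, a membrane nucleoporin with the near-identical copy POM121C, fell by 0.29 (adjusted p = 0.0326). Its call ended in 8 of 17 alternative fits (adjusted p 0.0523 to 0.124), among them each fit without 1 library except that without CD104low replicate 1. The other 10 of the 18 were not called. SEC13 and AHCTF1, also of the Y complex, had −0.11 and −0.21 (adjusted p = 0.313 and 0.112). The pore genes GLE1 and AAAS had −0.01 and −0.0009 (adjusted p = 0.886 and 0.996). TPR of the nuclear basket, the 1 gene of the list above 0, had 0.09 (adjusted p = 0.513).

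Of 27 tested genes of mRNA and ribosome export and of other adaptors, 8 fell (29.6%) and 0 rose, with a median of −0.19, beside the same 11.3% and 17.7%. DDX39A, an mRNA export helicase, had 7764, 7936 and 7702 in CD104high and 11244, 10872 and 10138.5 in CD104low (−0.46, SE 0.06, adjusted p = 0.00128). Falls were also found for the export adaptor ALYREF, for THOC5 and THOC7 of the THO complex and for NXT1, a subunit of the mRNA export receptor, with log2 fold changes of −0.46, −0.51, −0.34 and −0.43 (adjusted p = 0.00346, 0.00293, 0.0105 and 0.0114). NCBP1, a subunit of the cap-binding complex, fell by 0.27 (adjusted p = 0.0169). The other 19 of the 27 were not called, partners of these genes among them. NXF1, the partner of NXT1, had −0.19 (adjusted p = 0.0674), and NCBP2, that of NCBP1, 0.07 (adjusted p = 0.5). In the THO complex, THOC1, THOC2 and THOC6 had −0.19, −0.05 and −0.19 (adjusted p = 0.181, 0.724 and 0.179). The call for NXT1 ended without CD104high replicate 1 (0.0539), and that for NCBP1 without CD104high replicate 2 or 3, CD104low replicate 2 or both libraries numbered 3 (0.057 to 0.0822). No gene of these 2 lists rose at an unadjusted p under 0.05, and edgeR and DESeq2 called 0 higher.

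MYC and 9 of 20 proliferation genes (45%) were lower in the same libraries, where 11.3% of all tested genes and 17.7% of those with a mean of at least 1000 were. MYC, a transcription factor of growth genes, had 5247, 5369.9 and 5236 in CD104high and 8384, 8195 and 7455 in CD104low (−0.60, SE 0.07, adjusted p = 0.00046). No proliferation gene was called higher, 11 of the 20 were not called, and the list had a median log2 fold change of −0.22. TOP2A and CDK1 were the 2 above 0, with log2 fold changes of 0.23 and 0.14 (adjusted p = 0.0551 and 0.366). For TOP2A every CD104high library was above every CD104low library, and it was the 1 gene higher at an unadjusted p under 0.05. The 3 genes of the list with the smallest p were PLK1, CDC20 and CCNB1, with log2 fold changes of −0.46, −0.61 and −0.42 (adjusted p = 0.00126, 0.00165 and 0.00401). The summed level over the 20 genes was 275006 to 294375 in CD104high and 322000 to 324458 in CD104low. The part of MYC, of proliferation and of the other marker genes in the fall of the transport genes was not tested.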

How the data were processed

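The members and lists were chosen with earlier results of these data known. The authors deposited 1 table of 15024 genes whose per-library values (unit signal) are, judging by their even steps, gene read counts divided by a size factor per library, with a log2 fold change, a standard error and test statistic (score) and p-values of their own. The submitters' processing notes list DESeq2 1.30.1, featureCounts 1.5.0, STAR 2.4.0 and FastQC, and the build GRCh38.p13 (hg38); the role of each is not given. Whether counting used strand is not given in the sources used here. Reads of overlapping genes may therefore be mixed, and 14 of the 28 members that fell share exon bases with another annotated gene. The largest overlap with any 1 gene was 16.3% of the exon bases (KPNA1). No value is 0, and 4869 row numbers up to 19893 are not used here. Gene spans and exon lengths are from GENCODE 29 on GRCh38, matched for 54 of 54 members without the version of the identifier.

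The 14343 genes that reached 10 normalised reads in 3 or more of 6 libraries (53 of them members) were tested with limma 3.58.1 (R 4.3.3, mean-variance trend) on log2(value + 1), two-sided, with Benjamini-Hochberg adjustment over all tested genes. Where no tool is named an adjusted p comes from limma, and fold changes on the log2(value + 1) scale understate low genes. Whole reads, recovered with each library's own step (100% of values within 0.1 of a whole number), went into edgeR 4.0.16 and DESeq2 1.42.0 as alternatives only, since the step in CD104high replicate 2 (0.993) is less certain. edgeR called 1663 genes lower and 1686 higher, and DESeq2 1899 lower and 2006 higher. The limma and edgeR fits, but not DESeq2, were also run on simulated counts that held no pairing between libraries, and the outcome is not given here. The labels call the replicates biological without naming separate cultures, so the p-values reflect only how these samples vary, which may be technical.

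Libraries with the same number deviated from their group means in the same direction, with correlations over genes of 0.166 (number 1), 0.317 (number 2) and 0.477 (number 3). Between unlike numbers they ran from −0.373 to 0.129, so number 1 stands little apart (CD104high 2 with CD104low 1 gave 0.129 and CD104high 1 with CD104low 2 gave 0.0931). Each same-numbered correlation was above 0.1 and was the highest for both of its libraries. That of CD104high 2 with CD104low 1 was also above 0.1, so these values do not settle whether the numbers pair the samples. The labels do not state a pairing. The fit reported therefore used the group only, and a fit blocked on the number was an alternative. Named were all members that passed, RAN, KPNB1, KPNA2, XPO1 and CSE1L, and the member with the highest mean and with the smallest p in each role group. Also named were up to 6 passing genes of each pathway list by smallest p, MYC, ITGB4 and 3 proliferation genes. Other members, and some pathway genes that were not called, are given for completeness.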

Additional observations from a re-analysis of the deposited data

How the results depend on the processing

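The 0 members called higher, the direction of all 28 falls and the median log2 fold change of members (−0.23 to −0.26) held in all 17 alternative fits. Of the 28 members that fell, 15 were lower in all 17 and 13 lost the call in at least 1. With 1 library left out, 17 to 29 members and 10 to 17 of the other pathway genes (16 in the fit reported) were called lower, the fewest members without CD104high replicate 2 (17) and without CD104low replicate 2 (18). At an adjusted p under 0.01 the counts were 14 members and 7 pathway genes. With the replicate block they were 32 and 20, with NUP107, XPO4, CSE1L and TNPO3 gained and no other call of a member changed. With edgeR 28 members were called under either normalization, with DESeq2 31, with total-read scaling 27, without the mean-variance trend 20 and without both libraries numbered 3 also 20. Without the filter and with pseudocounts of 0.1 and 5 the count stayed at 28. Restricting the background to genes with a mean of at least 1000 was chosen after seeing the data. Of the 16 pathway genes, 8 were lower in all 17 fits. The lowest group mean among the tested members was 85.9 normalised reads (NUP62CL in CD104low), and precision is lowest for such rare transcripts.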

Other observations

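Per kilobase of annotated exon, levels of members spanned a wide range in the same libraries. KPNA2, CSE1L, KPNB1 and RAN led, with normalised read counts per kilobase of 6792, 6588, 5053 and 4421 in CD104high and of 7015, 7793, 6023 and 5762 in CD104low. At the other end NUP210L had 0.507 in CD104high and 1.07 in CD104low.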
